A study of Homo sapiens with 6 samples.

Results

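The microRNAs (miRNAs) made inside the HOX gene clusters, miR-10a, miR-10b, miR-196a, miR-196b and miR-615, were compared between azacitidine-resistant and azacitidine-sensitive K562 cells. They were taken by name from a table of small RNA counts, and all 10 were present among its 2656 miRNAs: hsa-miR-10a-5p, hsa-miR-10a-3p, hsa-miR-10b-5p, hsa-miR-10b-3p, hsa-miR-196a-5p, hsa-miR-196a-3p, hsa-miR-196a-1-3p, hsa-miR-196b-5p, hsa-miR-615-3p and hsa-miR-615-5p. K562 is an erythroleukaemia line from a patient with chronic myeloid leukaemia, and azacitidine is a cytidine analogue that traps DNA methyltransferases and lowers DNA methylation. The resistant form was grown in rising azacitidine concentrations over months, while the sensitive form is the line as it was before that selection. Each form had 3 libraries, named as biological replicates, and no genetic change was given for either form. All library names end in NT, which the labels do not explain. They also do not say whether the drug was in the medium at harvest or whether the resistant replicates came from separate selections, so the p-values measure the spread between these libraries. In bulk RNA, fewer cells that make a miRNA and less of it per cell cannot be told apart.

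The HOX clusters are rows of homeobox genes that set position along the body axis and are active in blood stem and progenitor cells. Their miRNAs lie within or beside the annotated genes and are often transcribed with them, and several of them repress HOX transcripts. In blood, HOXA genes and miR-196b are kept at high levels in leukaemias with rearranged MLL. DNA methylation and Polycomb marks cover many HOX loci in cells that do not use them.

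The mature sequences show which counts can be told apart, and they are printed 5′ to 3′ from RefSeq (GRCh38.p14) with the seed, bases 2 to 8, in capitals. The miR-196 guide strands share the seed AGGUAGU, and no other miRNA of the table with a RefSeq sequence has it at bases 2 to 8.
miR-196a-5p: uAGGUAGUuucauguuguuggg
miR-196b-5p: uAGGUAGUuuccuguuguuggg
Counted from the 5′ end, miR-196b-5p differs from miR-196a-5p by A12C alone. The same 7 bases stand at positions 3 to 9 of let-7a-5p, so the seed of miR-196 lies within the 5′ end of the let-7 guide, moved by 1 base.
let-7a-5p: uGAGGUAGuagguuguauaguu
miR-196a-5p itself is made from a hairpin in HOXB and from another in HOXC, and its counts cannot be assigned to either. The opposite arms of these hairpins differ at 7 of 21 compared positions and report the locus.
miR-196a-3p, HOXC: cGGCAACAagaaacugccugag
miR-196a-1-3p, HOXB: cAACAACAuuaaaccacccga
The hairpins are shown with both mature arms in capitals, since the shared 5p arm and the distinct 3p arm can be read in them.
MIR196A1: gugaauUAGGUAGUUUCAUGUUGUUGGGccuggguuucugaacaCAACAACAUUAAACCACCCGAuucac
MIR196A2: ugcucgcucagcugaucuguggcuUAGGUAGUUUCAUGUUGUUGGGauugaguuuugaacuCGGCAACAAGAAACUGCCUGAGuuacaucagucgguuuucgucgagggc
The seed of each other member printed here is shared by no further miRNA of the table that has a RefSeq sequence.
miR-10a-5p: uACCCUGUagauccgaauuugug
miR-10a-3p: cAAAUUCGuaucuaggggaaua
miR-10b-3p: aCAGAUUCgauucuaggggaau
miR-615-3p: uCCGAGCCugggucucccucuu
miR-615-5p: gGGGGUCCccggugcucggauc
The remaining member, miR-10b-5p, had no sequence in the set used, so whether it shares the seed of miR-10a-5p was not checked. miR-10a-5p and miR-10b-5p are near-identical, as are the miR-196 guides, and how the authors' counting split reads between such pairs is not given in the sources used here, so the balance within each pair is uncertain.

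The 6 hairpins lie in all 4 HOX clusters (GENCODE release 29, GRCh38). In HOXA, MIR196B (chr7:27169480-27169563, minus strand) overlaps an exon of transcripts assigned to HOXA9 and an exon of the antisense RNA HOXA10-AS, and the annotated extent of HOXA10 ends 1027 bp upstream of it. In HOXB, MIR10A (chr17:48579838-48579947, minus strand) lies in an intron of HOXB3 and overlaps an untranslated exon of a HOXB4 transcript. MIR196A1 (chr17:48632490-48632559, minus strand) lies in the same cluster, in introns of HOXB7 and of the antisense RNA HOXB-AS4, 6133 bp from HOXB9. In HOXC, MIR196A2 (chr12:53991738-53991847, plus strand) lies in an intron of a long HOXC6 transcript, 1458 bp from HOXC10. MIR615 (chr12:54033950-54034045, plus strand) lies in introns of HOXC4 and HOXC5. In HOXD, MIR10B (chr2:176150303-176150412, plus strand) lies in an intron of HOXD3, 809 bp from HOXD4.

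**Figure D1:**
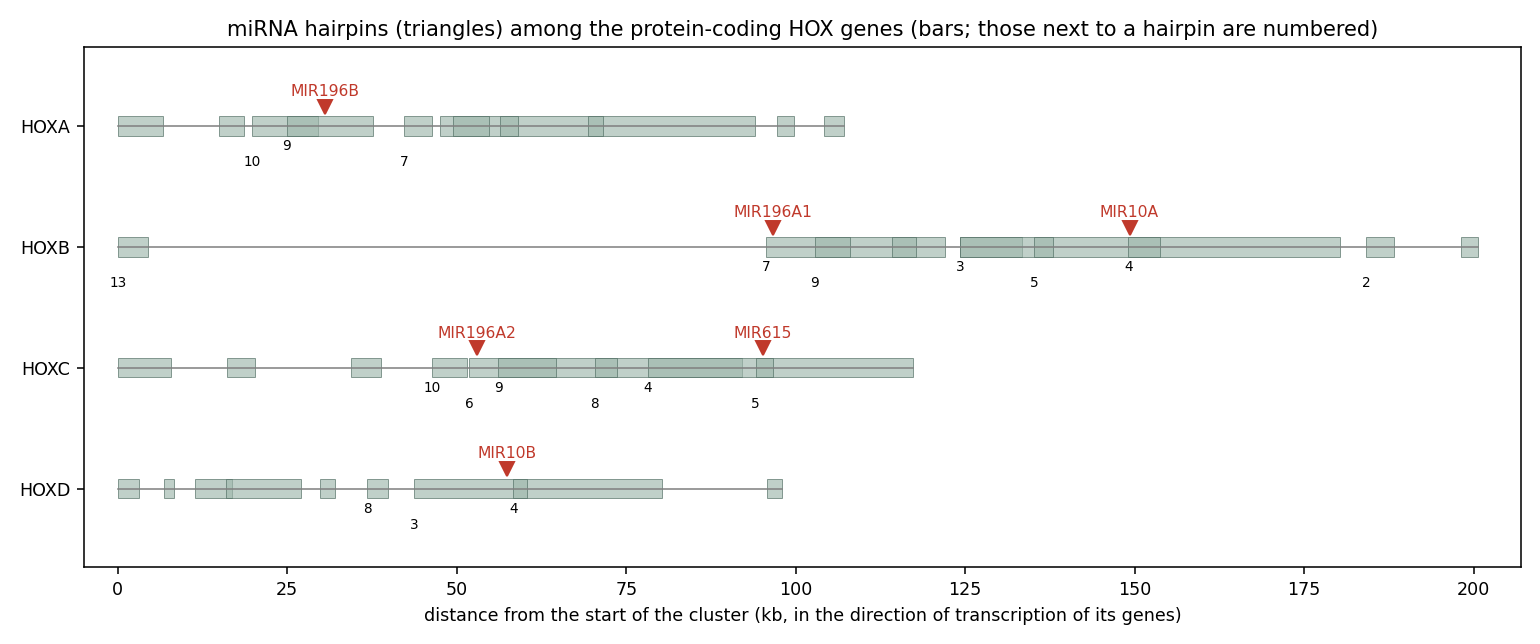
Position of the miRNA hairpins (triangles) in the HOX clusters, with the annotated extent of each protein-coding HOX gene as a bar. Genes that overlap or flank a hairpin are labelled by their number. The x axis gives the distance in kb from the start of each cluster, and the 6 hairpins fall on all 4 clusters.

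Library totals were 3291500 to 10644739 counts in resistant cells and 5660055 to 12563945 counts in sensitive cells. Resistant replicate 3, the shallowest library, stood apart. miR-92a-3p held 58.6% of its counts, against 20.2% and 17.5% in resistant replicates 1 and 2. Of 14 annotations that resemble fragments of other RNAs, 13 were in the table, and they held 4.95% of its counts, against 1.00% and 1.03% in the other resistant libraries and 1.07% to 1.69% in sensitive ones. The blood markers miR-142 and miR-223 held 0.104% of it, against 0.996% and 1.30% in resistant replicates 1 and 2 and 1.11% to 1.25% in sensitive libraries. The erythroid markers miR-144, miR-451a and miR-486-5p held 1.29% to 4.91% of resistant and 0.497% to 0.682% of sensitive libraries. These are sums, and not every marker rose: miR-144-5p had a log2 fold change of -0.0016 with all libraries. The 7 markers of liver, muscle, epithelium, neurons and endocrine cells held at most 0.00887% of resistant and 0.0106% of sensitive libraries, with miR-206 at 0 in resistant cells and miR-205-5p and miR-124-3p at 0 in sensitive cells. All 3 blood and all 4 erythroid markers had counts in each group. The fold changes are therefore given with and without resistant replicate 3, and the part that its composition plays in them was not tested.

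Of the HOX cluster miRNAs, miR-196a-5p rose in resistant cells with all 6 libraries. Once resistant replicate 3 was left out, miR-10b-5p, miR-196a-3p, miR-196b-5p and miR-615-3p passed the test as well, all higher in resistant cells. In that fit 13.7% of 822 tested miRNAs were called higher. These calls rest on resistant replicates 1 and 2 alone, and none of the other edgeR fits that left out 1 library made them. The rare miR-10b-3p and miR-196a-1-3p were also called without resistant replicate 3, but they entered that fit only through the resistant libraries in which they were high, so their calls are not used as support. Both arms of miR-10a and miR-615-5p passed in neither fit. Together the 10 members made up 1.12%, 1.07% and 0.543% of the counts of resistant replicates 1 to 3 (exact 95% binomial intervals 1.11% to 1.12%, 1.06% to 1.07% and 0.535% to 0.551%), against 0.605%, 0.756% and 0.586% in sensitive replicates 1 to 3 (intervals 0.600% to 0.609%, 0.751% to 0.762% and 0.579% to 0.592%). These intervals cover counting error only, as no molecular identifiers are mentioned in the labels. miR-10a-5p supplied 81.1%, 81.8% and 29.3% of the member counts in resistant replicates 1 to 3, against 90.8%, 91.9% and 85.5% in sensitive replicates 1 to 3. In resistant replicate 3, miR-615-3p was instead the main member, with 61.6% of the member counts.

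With all libraries, 9 of the 10 members passed the filter on low counts. Of these 1 was called higher and 0 lower (edgeR quasi-likelihood test, adjusted p under 0.05). In all, 4.17% of the 768 tested miRNAs were called, 2.08% higher and 2.08% lower. Before adjustment, 5 of the 9 members, the called one included, had p under 0.05, as had 26.7% of all tested miRNAs. In 4 of the 9, miR-10b-5p, miR-196a-5p, miR-196a-1-3p and miR-615-3p, all resistant libraries were above all sensitive ones, and over the table this held for 18.9% of miRNAs. That count depends on the scaling: it was 6 of the 9 with RLE factors (the scaling of DESeq2), against 20.2% of all miRNAs, and 3 of the 9 with library totals, against 25.7%, where miR-10b-5p overlapped. The median log2 fold change of the 9 was 1.74, and the median over all 768 was -0.11. Without resistant replicate 3 all 10 members passed the filter, and 7 were called higher and 0 lower, where 28.1% of the 822 tested miRNAs were called and 13.7% were called higher. miR-10b-3p here, and miR-196a-1-3p in both fits, passed the filter only through their resistant libraries, so counts that include them are descriptions. With all libraries, DESeq2 called 5 members higher, where it called 12.8% of all tested miRNAs higher. The count was 4 without a filter, against 6.63% of all miRNAs, and 2 with limma-voom, against 2.73%. Without resistant replicate 3 it was 7 with RLE factors and 7 with DESeq2, against 14% and 12.5% of all miRNAs, and 8 with library totals, against 21.8%. The median log2 fold change over all tested miRNAs was then 0.04 with TMM factors and 0.33 with library totals, and with all libraries it was -0.11 and 0.09. Fold changes are to be read relative to these shifts.

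**Figure D2:**
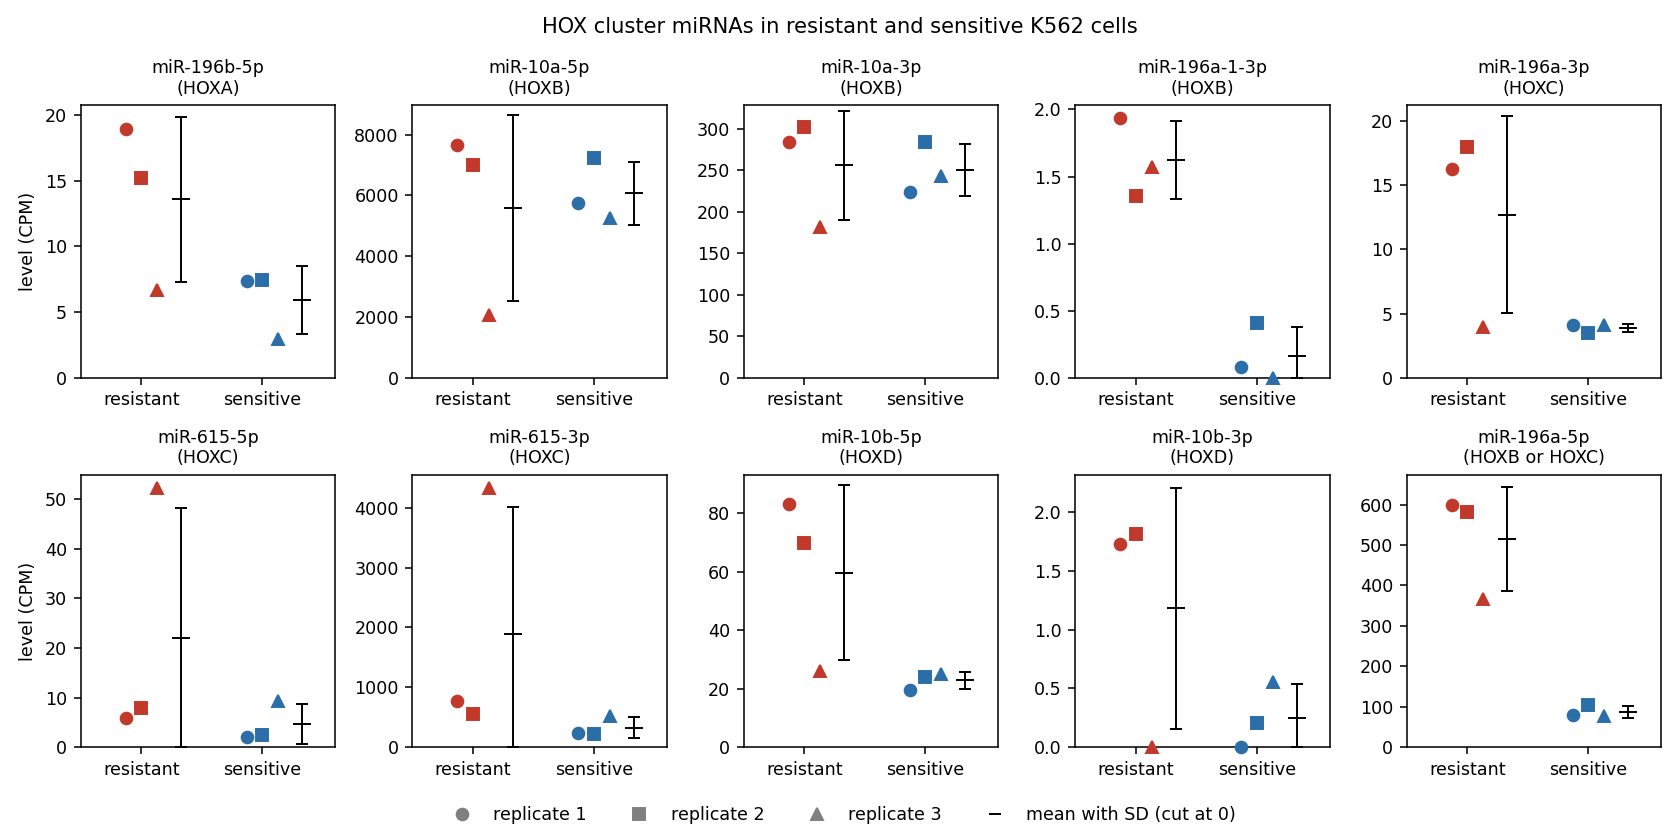
Level of each HOX cluster miRNA in CPM (y axis, from 0) in the 3 resistant and 3 sensitive libraries, with the mean and SD of each group. All resistant points of miR-196a-5p lie above all sensitive points, while those of miR-10a-5p overlap them, and resistant replicate 3 (triangle) is the lowest resistant point of miR-10a-5p and the highest of miR-615-3p.

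The miR-196 guides repress HOXB8 and other HOX transcripts. miR-196a-5p had 5876, 7703 and 933 counts in resistant replicates 1 to 3, against 971, 1033 and 416 in sensitive replicates 1 to 3. As CPM, the counts scaled to a common library size, this was 598, 581 and 366 CPM in resistant cells and 80.8, 105 and 77.0 CPM in sensitive cells. The lowest resistant library was thus well above the highest sensitive one. The group means were 515 ± 129 CPM in resistant cells and 87.7 ± 15.5 CPM in sensitive cells (SD, n = 3 each). This gave a log2 ratio of 2.55 in the fit (SE 0.41, adjusted p = 0.0154 by edgeR). With resistant replicate 3 left out, the increase was 6.97-fold (log2 fold change 2.80, SE 0.22, adjusted p = 2.94e-06 by edgeR). The call held without resistant replicate 2, but not without resistant replicate 1 or any of the 3 sensitive replicates, where the edgeR adjusted p reached 0.148. Its log2 fold change lay between 2.52 and 2.83 whichever library was left out.

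The passenger arms of miR-196a report the HOXC and HOXB hairpins separately. miR-196a-3p, from HOXC, had 160, 238 and 10 counts in resistant replicates 1 to 3, against 49, 34 and 22 in sensitive replicates 1 to 3. In CPM these were 16.3, 18.0 and 3.93 in resistant cells and 4.08, 3.47 and 4.07 in sensitive cells, so that resistant replicate 3 fell among the sensitive libraries. It was not called with all libraries (log2 fold change 1.74, SE 0.59, adjusted p = 0.134 by edgeR). Leaving out resistant replicate 3 gave a 4.59-fold increase (edgeR adjusted p = 0.00013). miR-196a-1-3p, from HOXB, was rare, with 19, 18 and 4 counts in resistant replicates 1 to 3, against 1, 4 and 0 in sensitive replicates 1 to 3. Its CPM values were 1.93, 1.36 and 1.57 in resistant cells, against 0.0832, 0.408 and 0 in sensitive cells, where a count of 0 allows up to 0.555 CPM in that library. The groups did not overlap, with a log2 fold change of 3.07 that was not called (SE 0.79, adjusted p = 0.0727 by edgeR). The value was 3.12 with resistant replicate 3 left out, and in both fits this arm passed the filter only through its resistant libraries, so no support is drawn from either. Of the passenger arms, that from HOXC was thus the one with enough counts in each group for its call to be read.

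miR-196b-5p, made in HOXA beside HOXA9, had 186, 202 and 17 counts in resistant replicates 1 to 3, against 89, 73 and 16 in sensitive replicates 1 to 3. This was 18.9, 15.2 and 6.68 CPM in resistant cells and 7.41, 7.45 and 2.96 CPM in sensitive cells, and replicate 3 was the lowest library of each group. Its log2 fold change of 1.20 did not pass (SE 0.56, adjusted p = 0.205 by edgeR), and it was 1.53 without resistant replicate 3 (SE 0.35, adjusted p = 0.00669 by edgeR). Its passenger arm miR-196b-3p, which is not among the 10 members, had 1, 3 and 0 counts in resistant replicates 1 to 3 and 0 in each sensitive library.

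**Figure D3:**
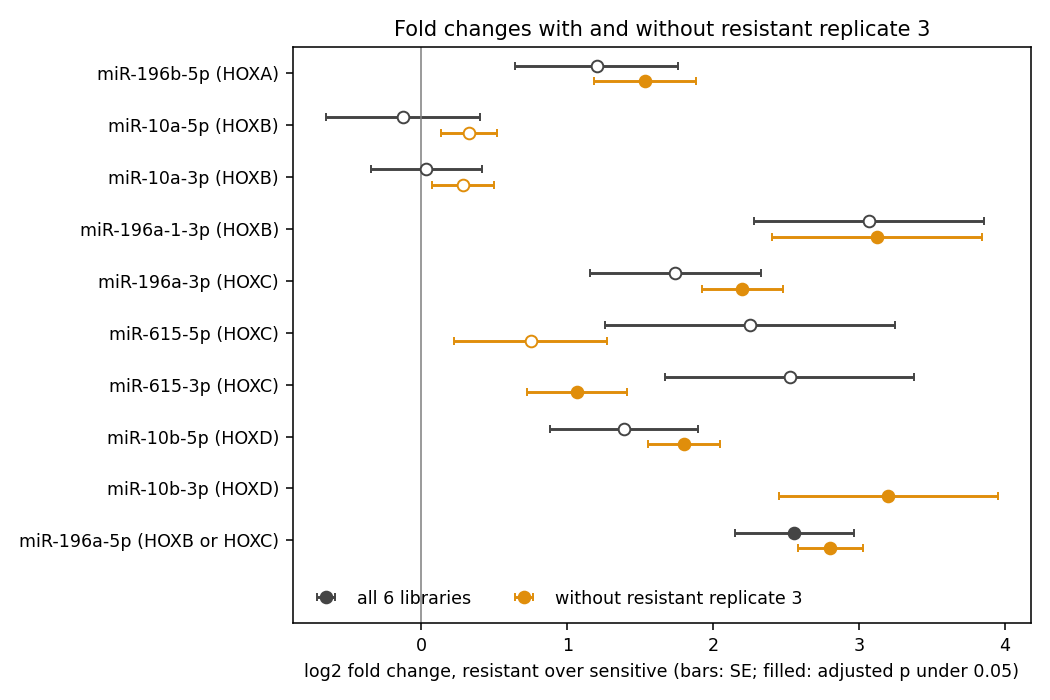
Log2 fold change (x axis, resistant over sensitive, with SE) of each HOX cluster miRNA with all 6 libraries and without resistant replicate 3, and filled points are those with an edgeR adjusted p under 0.05. miR-196a-5p is filled in both fits, and both arms of miR-10a are unfilled and close to 0, while miR-196a-1-3p and miR-10b-3p passed the filter only through resistant libraries.

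miR-10a and miR-10b are made from paralogous hairpins beside HOXB4 and HOXD4, and the guide of miR-10b represses HOXD10 among other transcripts. miR-10a-5p was the most abundant member in all libraries except resistant replicate 3. It had 7647, 7004 and 2056 CPM in resistant replicates 1 to 3, against 5739, 7234 and 5244 CPM in sensitive replicates 1 to 3, so the groups overlapped. No change was called with all libraries (log2 fold change -0.12, SE 0.53, adjusted p = 0.878 by edgeR) or without resistant replicate 3 (log2 fold change 0.32, SE 0.19, adjusted p = 0.236 by edgeR). Scaled by library totals and with resistant replicate 3 left out, its log2 fold change of 0.61 was called (edgeR adjusted p = 0.0329), where the median miRNA stood at 0.33. Its passenger miR-10a-3p had 284, 302 and 181 CPM in resistant cells and 224, 284 and 243 CPM in sensitive cells, with log2 fold changes of 0.03 and, without resistant replicate 3, 0.28 (edgeR adjusted p = 0.964 and 0.373).

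miR-10b-5p was rarer, with 815, 926 and 66 counts in resistant replicates 1 to 3, against 234, 235 and 135 in sensitive replicates 1 to 3. In CPM it stood at 82.9, 69.9 and 25.9 in resistant cells, against 19.5, 24.0 and 25.0 in sensitive cells. Resistant replicate 3 lay just above the highest sensitive library and the other resistant libraries lay far above it. Its log2 fold change of 1.39 did not pass (SE 0.51, adjusted p = 0.148 by edgeR). With resistant replicate 3 left out, the value was 1.80, an increase of 3.48-fold (SE 0.25, adjusted p = 0.000271 by edgeR). Its passenger miR-10b-3p had 17, 24 and 0 counts in resistant replicates 1 to 3, against 0, 2 and 3 in sensitive replicates 1 to 3, which was too few to be tested with all libraries. The 0 counts of resistant replicate 3 allow up to 1.18 CPM, against 1.73 and 1.81 CPM in resistant replicates 1 and 2. Without that library it had a log2 fold change of 3.20 (SE 0.75), and it entered that fit only through its resistant libraries, so its call is not read as a result.

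miR-615, which lies within HOXC5, varied widely between replicates. miR-615-3p had 7557, 7416 and 11017 counts in resistant replicates 1 to 3, against 2934, 2095 and 2843 in sensitive replicates 1 to 3. In CPM this was 769, 559 and 4327 in resistant cells and 244, 214 and 526 in sensitive cells, and replicate 3 was the highest library of each group. All resistant values were above all sensitive ones, with a log2 fold change of 2.52 that did not pass (SE 0.85, adjusted p = 0.134 by edgeR). When resistant replicate 3 was left out, the log2 fold change was 1.07, an increase of 2.09-fold (SE 0.34, adjusted p = 0.0363 by edgeR). miR-615-5p had 5.90, 7.92 and 52.2 CPM in resistant cells and 2.16, 2.45 and 9.25 CPM in sensitive cells, so the groups overlapped, and it was called in neither fit (log2 fold change 2.25 with all libraries and 0.75 without resistant replicate 3, edgeR adjusted p = 0.192 and 0.332).

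The arms of miR-615 are rich in G and C, at 63.6% for miR-615-3p and 77.3% for miR-615-5p, against a median of 47.8% over the 677 tested miRNAs that have a sequence. Across these miRNAs, the deviation of resistant replicate 3 from the other resistant libraries rose with GC content (Spearman's rho 0.715, a description across miRNAs, which are not independent replicates). For sensitive replicate 3 against the other sensitive libraries it was 0.181. In resistant replicate 3, miR-615-3p deviated by 2.72 and miR-615-5p by 2.89 on the log2 scale, while miR-10a-5p, at 43.5% GC, deviated by -1.83. miR-196a-3p, at 54.5% GC, deviated by -2.06. With a correction for GC content and without resistant replicate 3, miR-615-3p was not called (log2 fold change 0.68, edgeR adjusted p = 0.107). With all libraries the corrected log2 fold change of miR-615-3p was 1.20, against 2.52 without correction (edgeR adjusted p = 0.124). For miR-615-5p the corrected values were 0.21 with all libraries and 0.23 without resistant replicate 3 (edgeR adjusted p = 0.808 and 0.775). miR-10a-3p, at 36.4% GC, moved the other way, to a log2 fold change of 0.97 with all libraries and 0.49 without resistant replicate 3 (edgeR adjusted p = 0.117 and 0.0619). In the corrected fit without resistant replicate 3, miR-196a-5p, miR-196a-3p and miR-196b-5p were called higher, where 12.1% of 729 tested miRNAs were. miR-196a-1-3p and miR-10b-3p were called there too, though both passed the filter only through resistant libraries, and miR-10b-5p did not enter that fit. With the correction and all libraries, 2 members were called higher, miR-196a-5p and the filter-limited miR-196a-1-3p, where 5.61% of 677 miRNAs were.

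**Figure D4:**
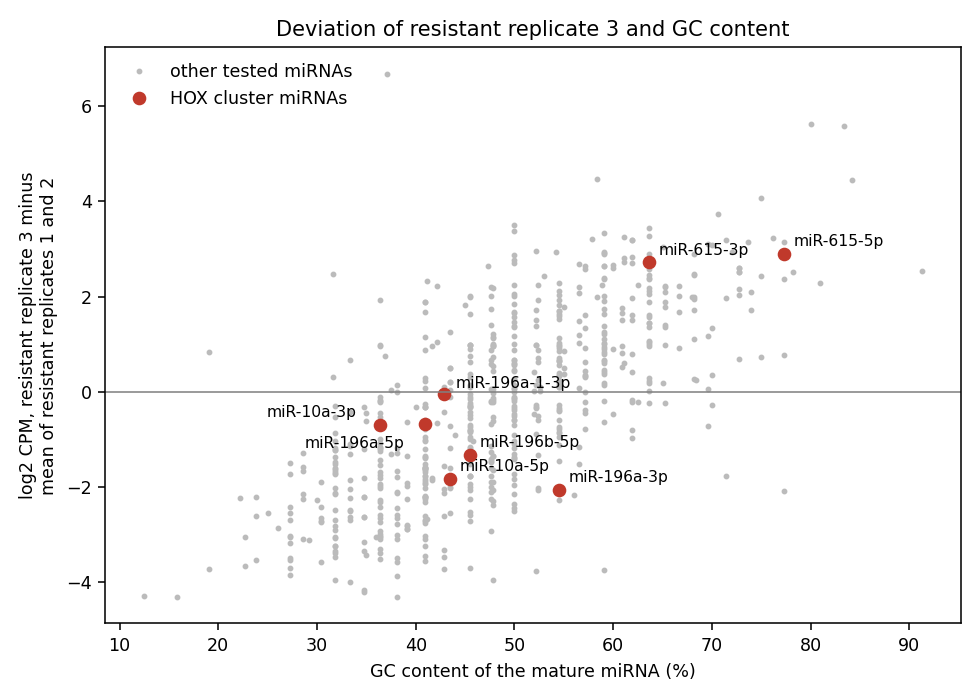
Deviation of resistant replicate 3 from the mean of resistant replicates 1 and 2 (y axis, difference of log2 CPM) against the GC content of the mature miRNA (x axis, %), for 677 tested miRNAs. miR-615-3p and miR-615-5p lie at 2.72 and 2.89 on the GC-rich side, while the other 6 HOX cluster miRNAs shown lie below 0.

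Summed by cluster, the level from HOXC did not overlap between the groups, that from HOXB did, and those from HOXA and HOXD depended on the scaling. Over single tested miRNAs, all resistant libraries were above all sensitive ones for 18.9% with TMM factors, 20.2% with RLE factors and 25.7% with library totals. The HOXC level was mostly miR-615-3p, which has 63.6% GC and was not called after the GC correction. These sums are descriptions with no test. The HOXD sum (miR-10b arms) was 84.7, 71.7 and 25.9 CPM in resistant replicates 1 to 3, against 19.5, 24.2 and 25.5 CPM in sensitive replicates 1 to 3. With library totals as the scaling its lowest resistant value was 20.1 and its highest sensitive value 24.4, so the groups then overlapped. The HOXC sum (miR-615 arms and miR-196a-3p) was 791, 585 and 4383 CPM in resistant cells, against 250.4, 220 and 539 CPM in sensitive cells. The ratio of group means for HOXC was 5.71-fold with all libraries and 2.05-fold without resistant replicate 3. The HOXB sum (miR-10a arms and miR-196a-1-3p), almost all of it miR-10a-5p, was 7933, 7308 and 2239 CPM in resistant cells, against 5962, 7519 and 5487 CPM in sensitive cells. HOXA is represented by miR-196b-5p alone, which overlapped with TMM factors and library totals but not with RLE factors, where its lowest resistant value was 8.05 and its highest sensitive value 7.38. miR-196a-5p belongs to HOXB or HOXC and was kept out of the sums.

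Ratios between members within a library do not depend on how the libraries are scaled. Of 11 ratios computed, 5 follow the hairpin arms or loci, and all 5 of these overlapped between the groups. The other 6 were chosen after the values had been seen, and 5 of them did not overlap. This is given as a description, and no p is read for them. miR-10b-5p had 1 count for every 92.2, 100.3 and 79.3 counts of miR-10a-5p in resistant replicates 1 to 3, against every 295, 301 and 210.0 counts in sensitive replicates 1 to 3. The difference of mean log2 ratios was 1.56, or 2.94-fold. miR-196a-5p had 1 count for every 12.8, 12.1 and 5.61 counts of miR-10a-5p in resistant replicates 1 to 3, against every 71.0, 68.6 and 68.1 in sensitive replicates 1 to 3, a difference of 2.86 on the log2 scale. Resistant replicate 3, where the CPM of miR-10b-5p was close to the sensitive libraries, thus sat with the other resistant libraries in this ratio of miR-10b-5p to miR-10a-5p. miR-10a-5p was also low in that library, at 2056 CPM against 7647 and 7004 CPM in resistant replicates 1 and 2. How reads were split within this pair is not known, so the ratio is a description only.

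Within the miR-196 seed family, miR-196a-5p had 31.6, 38.1 and 54.9 counts for each count of miR-196b-5p in resistant replicates 1 to 3, against 10.9, 14.2 and 26.0 in sensitive replicates 1 to 3. The HOXB passenger miR-196a-1-3p over miR-10a-3p of the same cluster had a difference of 3.28 on the log2 scale with 0.5 counts added to each side. With 1 count added it was 2.83. miR-196a-1-3p had 1, 4 and 0 counts in sensitive replicates 1 to 3 and passed the filter only through its resistant libraries. No support is drawn from this ratio. For miR-196a-5p over miR-196a-3p the difference was 1.09 on the log2 scale, and 0.63 without resistant replicate 3. miR-615-3p over miR-196a-3p overlapped. For the ratios of arms or loci, a two-sided exact permutation test of 3 against 3 libraries cannot give a p below 0.1. Its unadjusted p was 0.3 to 0.8. Benjamini-Hochberg adjustment over all 11 ratios gave 0.55 to 0.88, but it included the 6 ratios chosen after the values had been seen. miR-10a-5p had 26.9, 23.2 and 11.4 counts for each count of miR-10a-3p in resistant replicates 1 to 3, against 25.7, 25.5 and 21.6 in sensitive replicates 1 to 3 (exact permutation p = 0.7). The exact permutation p was 0.6 for the arms of miR-10b and of miR-196b and 0.8 for those of miR-615. miR-196a-3p over miR-196a-1-3p, HOXC over HOXB, was 8.42, 13.2 and 2.50 in resistant replicates 1 to 3, against 49.0 and 8.50 in sensitive replicates 1 and 2, with 22 counts against 0 in sensitive replicate 3 (exact permutation p = 0.3). The log2 ratio of sensitive replicate 3 rests on the added 0.5 counts. With a smallest p of 0.1 and few miR-196a-1-3p counts in sensitive cells, this test cannot decide whether the hairpin balance differed.

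**Figure D5:**
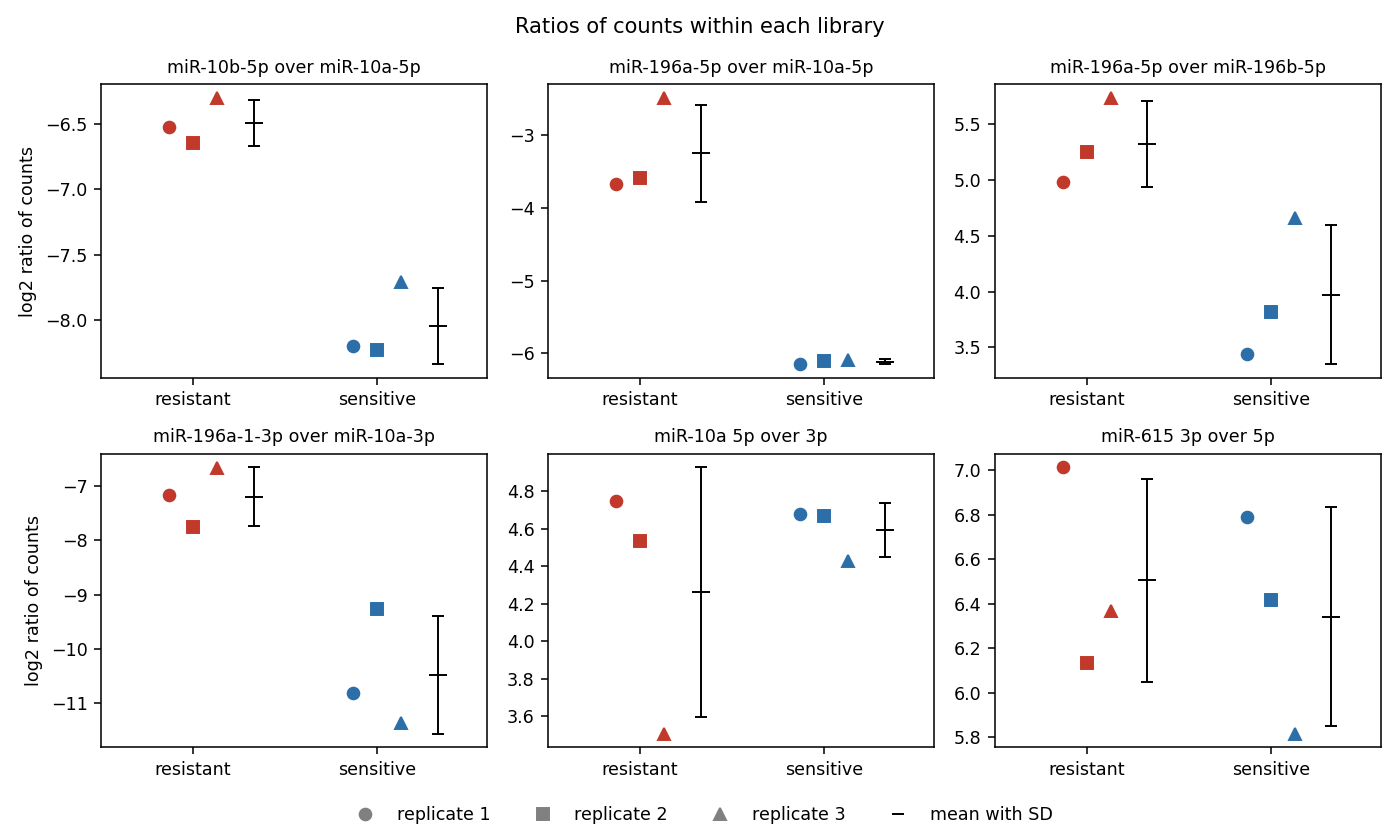
Log2 ratio of the counts of a pair of miRNAs within each library (y axis, 0.5 counts added to each side) in resistant and sensitive cells, with the mean and SD of each group. miR-10b-5p and miR-196a-5p over miR-10a-5p, miR-196a-5p over miR-196b-5p and miR-196a-1-3p over miR-10a-3p do not overlap between the groups, while the arm ratios of miR-10a and miR-615 do. miR-196a-1-3p passed the filter only through its resistant libraries.

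The miR-99 and miR-100 family descends from the same ancestor as miR-10 and lies outside the HOX clusters. Its list was chosen with earlier results of these data known, so counts and medians over it are descriptions. Of 6 listed members 4 were tested, and 1 was called lower and 0 higher with all libraries, where 2.08% of all miRNAs were called lower. miR-99a-5p had 15.6, 21.7 and 12.2 CPM in resistant replicates 1 to 3, against 394, 278 and 440 CPM in sensitive replicates 1 to 3 (log2 fold change -4.48, SE 0.47, adjusted p = 0.00219 by edgeR). miR-100-5p was rare, at 1.32, 0.83 and 0 CPM in resistant replicates 1 to 3, against 3.74, 5.00 and 2.22 CPM in sensitive replicates 1 to 3. With all libraries, 1 resistant and 3 sensitive libraries were over the filter's cutoff. Its log2 fold change there, -2.10 and not called (edgeR adjusted p = 0.134), is thus a description. Without resistant replicate 3, 2 resistant and 3 sensitive libraries were over the cutoff, and miR-100-5p fell by 1.76 on the log2 scale (edgeR adjusted p = 0.0125). miR-99b-5p, the most abundant of them, averaged 2253 ± 543 CPM in resistant cells and 1873 ± 155 CPM in sensitive cells (SD, n = 3 each; edgeR adjusted p = 0.655). The median log2 fold change of the 4 was -0.92, against -0.11 over all tested miRNAs, but it describes no single member. Of the 4, 2 were negative, while both arms of miR-99b were positive, at 0.27 for miR-99b-5p and 1.14 for miR-99b-3p (edgeR adjusted p = 0.655 and 0.212).

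Of other miRNAs known to repress HOX genes or their partner MEIS1, those called were lower. Their list was also chosen with earlier results of these data known, so counts and medians over it are descriptions. Of 6 listed members 5 were tested, and with all libraries 1 was called lower and 0 higher, where 2.08% of all tested miRNAs were called lower and 2.08% higher. miR-181a-5p, a repressor of HOXA11 in mouse, had 116, 114 and 257 CPM in resistant replicates 1 to 3, against 803, 738 and 1058 CPM in sensitive replicates 1 to 3 (log2 fold change -2.42, SE 0.48, adjusted p = 0.0355 by edgeR). Without resistant replicate 3, 4 of the 5 were called lower, where 14.4% of 822 tested miRNAs were. miR-126-3p, which represses HOXA9 in mouse, was the most abundant, at 21677, 25158 and 9050 CPM in resistant replicates 1 to 3, against 47246, 47708 and 33789 CPM in sensitive replicates 1 to 3. It did not pass with all libraries (log2 fold change -1.20, edgeR adjusted p = 0.166) and fell by 0.82 on the log2 scale without resistant replicate 3 (edgeR adjusted p = 0.00883). miR-204-5p, which represses HOXA10 and MEIS1, fell by 1.78 in that fit (edgeR adjusted p = 0.0044), and missed the threshold with all libraries (log2 fold change -1.97, edgeR adjusted p = 0.0596). The 5 had a median log2 fold change of -1.34, or -1.58 with resistant replicate 3 left out, and these are the values of miR-181b-5p. Of the 5, 4 were negative in each fit. miR-210-3p was positive, at 0.14 and 0.27 (edgeR adjusted p = 0.824 and 0.568).

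Profiles across the 6 libraries were compared by the root mean square difference of centred log2 CPM, among 463 other miRNAs with at least 10 CPM. Such likeness also follows depth and composition, which the libraries share. The profiles most like that of miR-196a-5p were miR-200c-3p and let-7a-5p, at 0.52 and 0.56. For miR-10b-5p they were miR-148a-5p and let-7a-3p, at 0.32 and 0.35. miR-10a-5p was closest to miR-195-5p and miR-454-3p, at 0.13 and 0.14, and miR-10a-3p to miR-374b-5p and miR-23a-3p, at 0.09 and 0.14. miR-615-3p was closest to miR-760 and miR-937-3p, at 0.23 and 0.24, and miR-615-5p to miR-7977 and miR-760, at 0.34 and 0.40.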

How the data were processed

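Small RNA of 3 resistant and 3 sensitive K562 libraries was sequenced after NEBNext library preparation, per the labels' protocols. The authors deposited raw read counts per mature miRNA, whole numbers with unequal column totals. Per the submitters' processing notes the genome build was GRCh38. For the aligner, the counting program and the miRBase release, the sources used here give no name. Column names matched the library names in the labels. Counts were analysed with edgeR 4.0.16 in R 4.3.3: filterByExpr (minimum count 10, minimum total count 15), TMM factors, and the quasi-likelihood F test of resistant over sensitive without covariates, adjusted by the Benjamini-Hochberg method over all tested miRNAs at a threshold of 0.05. CPM are counts over TMM-scaled library size. The SE was approximated from the F statistic, as the size of the log2 fold change over root F. Limits for 0 counts use 3 counts. Replicates of a group differed far beyond sampling noise (chi-square per degree of freedom 145 to 4770), so no library was counted as a repeat of another. Fits were checked on simulated negative binomial counts without an outlier library or a GC trend, so the check does not cover resistant replicate 3. DESeq2 1.42.0 and limma 3.58.1 (voom) were alternatives. The GC correction used a loess curve (span 0.75) per library on the GC content of the mature sequence, available for 88.2% of tested miRNAs. All 10 members were named. Of the other lists, the text names the member with the highest level and the 2 with the smallest adjusted p, and, for each member of at least 10 CPM, the 2 miRNAs with the closest profile. miR-99b-3p, miR-181b-5p and miR-210-3p are named in addition, to show how the lists divide. Members and lists were chosen with earlier results of these data known.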

Additional observations from a re-analysis of the deposited data

How the results depend on the processing

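Over all miRNAs, 32 were called with 768 tested. The count was 21 with RLE factors, 162 without a filter, 14 with a minimum mean of 10 CPM, 149 with DESeq2 and 70 with the GC correction, and 4 to 231 when 1 library was left out. Without resistant replicate 3 it was 197 with the GC correction and, in fits chosen after seeing the data, 236 with RLE factors, 244 with library totals and 224 with DESeq2. Library totals gave 27 higher and 16 lower with all libraries, against 16 and 16 with TMM factors, and 179 higher and 65 lower without resistant replicate 3, against 113 and 118. Of the HOX cluster miRNAs, 1 was called higher, where 2.08% of all tested miRNAs were. It was 4 without a filter (6.63% of all), 5 with DESeq2 (12.8%), 2 with limma-voom (2.73%) and 2 with the GC correction (5.61%). These 4 counts include miR-196a-1-3p. When 1 library was left out it was 0 to 7, with 7 without resistant replicate 3, where 13.7% of all were. Without that library it was 5 with the GC correction (12.1%), 7 with RLE factors (14%), 8 with library totals (21.8%) and 7 with DESeq2 (12.5%). The counts without resistant replicate 3 include miR-10b-3p and miR-196a-1-3p, which passed the filter only through resistant libraries. No HOX cluster miRNA was called lower in any of these fits. With all libraries and edgeR 205 miRNAs of the table had an unadjusted p under 0.05, and DESeq2 called 51 miRNAs of the table lower. miR-196a-5p kept its call in 15 of 19 alternatives (edgeR adjusted p up to 0.148 where it did not), and the 4 losses each left out 1 library. miR-10a-5p ranged over -0.33 to 0.32 when 1 library was left out and turned positive in 9 alternatives: 0.15 with library totals, 0.11 without sensitive replicate 2, 0.20 with the GC correction, 0.16 with that correction and a replicate block, and without resistant replicate 3 0.32 with TMM, 0.42 with the GC correction, 0.32 with RLE factors, 0.61 with library totals and 0.32 with DESeq2. miR-99b-5p turned negative with the GC correction (-0.51), also without resistant replicate 3 (-0.20) and with a replicate block (-0.63). The cause was not tested. Of the cluster sums, HOXC had a log2 ratio of 1.03 without resistant replicate 3, against 2.51. The labels do not say whether same-numbered libraries are paired. Deviations of same-numbered libraries correlated at -0.06, 0.26 and 0.13 over 768 miRNAs. Replicates 2 and 3 of each group correlated best with their own number, and replicate 1 of each group did not. Deviations within a group of 3 are not independent of each other, so this cannot settle pairing. With the replicate number as a block, 23 miRNAs were called, 8 higher and 15 lower, and 1 HOX cluster miRNA was called higher. Counts under 10 per library limit miR-196a-1-3p, miR-10b-3p and miR-196b-3p.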
